A study of Mus musculus with 6 samples.

Results

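Sub-cluster 3 is one of the early postnatal groups that the authors obtained when they re-clustered the astroglial cells of the mouse striatum by single-cell RNA-seq. Its members are the cells to which the deposited annotation gives sub-cluster number 3. There were 781 of them among 8874 astroglial cells at postnatal day 3 (P3), and none of the 1118 astroglial cells from 3-month-old (3m) mice carried the number, which allows a share of up to 0.268% at that age (counting error only). Cells of both ages came from wild-type male C57BL/6 mice, with 3 libraries per age, and were isolated with magnetic beads that bind ACSA2, an astrocyte surface antigen and the product of *Atp1b2* (227 CPM ± 47.5 in the members and 319 ± 21.7 in the other P3 astroglial cells, SD, n = 3; CPM, counts of its captured transcripts per 1000000). Per the study's methods, several mice were pooled in each preparation and the subventricular zone was left out of the dissection. Every comparison below is within the P3 libraries, unless the adult sub-clusters 7 and 13 are named.

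Astrocytes of the striatum arise from radial glia, which line the ventricle of the embryonic forebrain and also give rise to ependymal cells, the ciliated lining of the adult ventricle. Young astroglial cells carry the transcription factor Sox9 and the lipid carrier Fabp7. Where in the neural tube they were born is often read from homeobox genes that pattern it, such as *Six3* in the ventral forebrain. Motile cilia are built under the forkhead factor Foxj1 and RFX factors, and cells with many cilia also need regulators such as Mcidas and Myb.

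The members were spread unevenly over the libraries. They made up 1.76% of P3 astroglial cells in replicate 1 (35 of 1985, Wilson 95% interval 1.27 to 2.44), 13.1% in replicate 2 (405 of 3103, 11.9 to 14.3) and 9.01% in replicate 3 (341 of 3786, 8.14 to 9.96), with a mean of 7.94% ± 5.72 (SD, n = 3). The shares are of bead-enriched cells, and the ACSA2 enrichment can set them. In the clustering of all cell types, 771 of the 781 cells had been in the astroglial cluster 1, 8 in cluster 0 and 2 in cluster 4. Other sub-clusters were split by library too. Replicate 1 gave 95.5% of sub-cluster 1, and replicate 3 gave 97.8% of sub-cluster 4 and 96.1% of sub-cluster 12, so the remaining P3 cells differ in composition between libraries. For this reason each ratio was taken within a library. Of 37 barcode sequences found in 2 libraries, 5 belonged to members.

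Median depth was close to that of the other P3 astroglial cells, which held more shallow cells. Median UMIs per cell (unique molecular identifiers, which count captured transcripts) were 9183, 6887 and 6233 in replicates 1, 2 and 3, beside 9718, 8330 and 5308 in the other cells, and median mitochondrial shares lay between 1.15% and 1.75%. In replicates 1, 2 and 3, cells under 2000 UMIs numbered 0, 1 and 4 among the members and 48, 117 and 943 among the other cells. Summed over members the libraries held 324691, 2908993 and 2207101 UMIs. A single UMI in replicate 1 was therefore worth 3.08 CPM, against 0.344 and 0.453 CPM in the others, and low genes rest mainly on replicates 2 and 3.

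Among the re-clustered cells the members lay beside sub-cluster 5. Of the 10 nearest cells to each member on the authors' UMAP map, 85.3% were members as well and 12.8% belonged to sub-cluster 5. Across the 10247 genes considered, the log2 level correlated most closely with sub-cluster 5 (Pearson's r = 0.979), then with sub-cluster 10 (0.913) and sub-cluster 15 (0.898), and the r with sub-clusters 0 and 1 together was 0.884. These are descriptions across genes of the same 3 libraries.

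**Figure D1:**
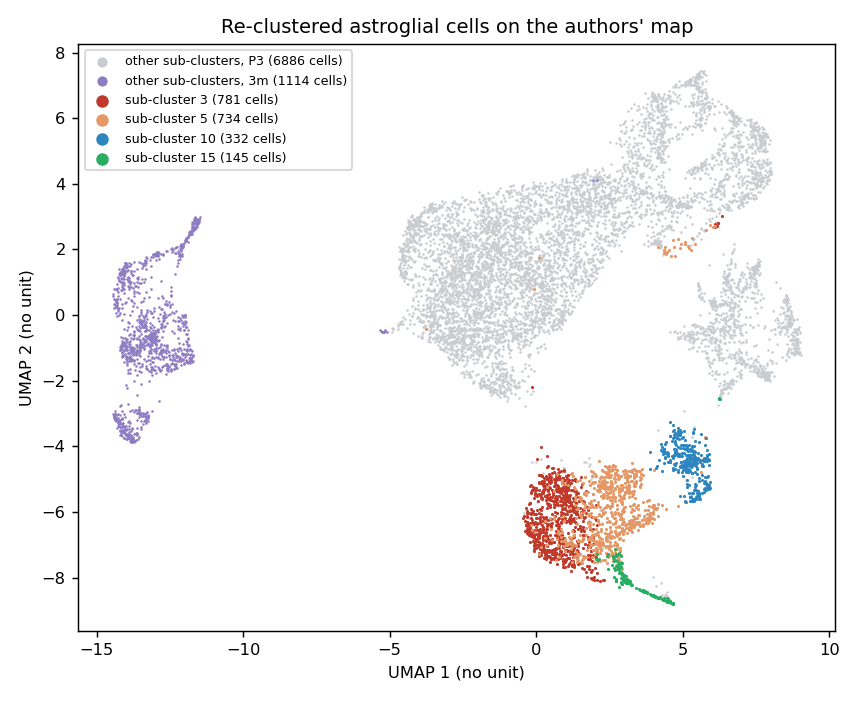
Each point is 1 of the re-clustered astroglial cells at its position on the authors' UMAP map (axes without unit), with sub-clusters 3, 5, 10 and 15 in colour, the other P3 cells in grey and the other 3m cells in violet. Nearly all of the 781 cells of sub-cluster 3 lie in one island with sub-clusters 5 and 15, with sub-cluster 10 close by and apart from the main body of P3 cells, and a few lie elsewhere.

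The label holds against its markers. *Sox9* stood at 634, 804 and 1311 CPM in the members of replicates 1, 2 and 3, and at 527, 472 and 852 CPM in the other P3 astroglial cells. *Fabp7* stood at 10438, 18702 and 10760 CPM, beside 20974, 24711 and 18723 CPM. Both genes were thus abundant, *Fabp7* somewhat less so than elsewhere, and after thinning each cell to 2000 UMIs a *Fabp7* UMI was found in 99.9% of members. Markers of most other cell types were low. Summed endothelial markers stayed between 1.03 and 5.44 CPM, and *Pecam1*, *Cdh5* and *Ly6c1* had no UMI. Of 13 oligodendrocyte lineage markers 7 had none, *Sox10* and *Pdgfra* among them, and the microglial markers *P2ry12*, *C1qa* and *Csf1r* had none either. Microglial markers summed to between 33.9 and 49.8 CPM in the members and between 17.8 and 23.0 CPM in the rest, and 6 of the 9 were at 0. The one list far above the rest was that of 8 ependymal markers, which summed to between 551 and 599 CPM in the members and between 57.9 and 227 CPM in the other cells.

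Against all other P3 astroglial cells, 441 of 10247 genes (4.3%) were at least 2-fold higher in all 3 libraries, and 395 (3.85%) were at least 2-fold lower in all 3. Since the same genes were used to cluster the cells, these counts describe the sub-cluster and carry no test. The median log2 ratio of all genes was -0.03. The leading genes higher in the members were, in order, *Crym*, *Nkx6-2*, *Tmem159*, *C1ql3*, *Lhcgr*, *Adamts18*, *Prex2*, *Gfra1*, *Riiad1*, *Dnajb13* and *Meg3*. Those lower were *Grm5*, *Agt*, *Ccnb1*, *Inka2*, *Prc1*, *Ube2c*, *Olig1*, *Dbx2*, *Ckap2l*, *Hist1h2ae*, *Spc25* and *Cks2*.

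*Crym*, which encodes a thyroid hormone-binding protein of the cytosol (chr7:120186380-120202111, minus strand, GRCm38), stood furthest apart. Its level was 4835, 6654 and 5693 CPM in the members and 219, 308 and 306 CPM in the other cells, a ratio of means of 20.6 and a log2 ratio of 4.37 ± 0.13 (SD, n = 3, of CPM + 1). The members and the rest were thus far apart in every library. After thinning to 2000 UMIs, 774 of 776 members (99.7%, Wilson 99.1 to 99.9) held a *Crym* UMI, against 20.6% of the other P3 astroglial cells and 1.32% of endothelial cells of cluster 7, whose median depth was 26510 UMIs and which stand for the level of free RNA. Only 5 members were too shallow to be thinned, against 1108 of the 8093 other P3 astroglial cells, which were left out of these shares. Without thinning the shares were 99.9%, 31.7% and 5.62%. Within the sub-cluster the level varied about 5-fold, from 24.8 *Crym* UMIs per 10000 at the 5th percentile of cells to 132.5 at the 95th, with a median of 53.9.

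*Crym* was not absent elsewhere. In order of mean level, the adult sub-cluster 7 followed the members with 2701 CPM ± 1186, then sub-cluster 15 (971 ± 140), sub-cluster 5 (683 ± 116), sub-clusters 0 and 1 together (466 ± 115), the adult sub-cluster 13 (267 ± 292) and sub-cluster 10 (37.5 ± 28.0; SD, n = 3 throughout). The libraries of the members lay above all of these. Sub-cluster 7 had values of 3790, 2876 and 1437 CPM, of which the first rests on 14 cells, so its range came near to the lowest member value. Sub-clusters 15 and 5 met without overlap, the lowest value of the one being 819 and the highest of the other 815 CPM, and sub-cluster 13, with 0, 224 and 579 CPM, overlapped with both of its neighbours.

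*Tmem159* (chr7:120102353-120120992, plus strand), whose product promotes lipid droplet formation, lies on the same chromosome 65.4 kb from *Crym*. It stood at 46.2, 75.3 and 59.8 CPM in the members and at 5.09, 6.64 and 5.54 CPM in the rest, without overlap (log2 ratio 3.16 ± 0.19). Within 500 kb of *Crym* on either side are 18 protein-coding genes of the count table, of which 7 were considered. *Crym* and *Tmem159* were the 2 that met the 2-fold rule, beside 4.3% of all genes. The window was centred on *Crym*, and *Tmem159* is a leading gene too, so this count is no result about the locus. Between them lie *Zp2*, with 2 UMIs in all members, and *Anks4b*, with 14 UMIs (2.88 CPM, beside 0.250 CPM in the rest). *Anks4b* ends 794 bases from *Crym* and was too low to be considered.

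Other leading genes were at lower levels and less sharply divided than *Crym*. *Nkx6-2*, a homeobox gene better known from the ventral hindbrain and spinal cord, had 67.8, 107 and 152 CPM in the members and 3.82, 10.0 and 18.2 CPM in the rest (log2 ratio 3.37 ± 0.43). The member value of each library exceeded every value of the rest. For *Lhcgr*, the luteinizing hormone receptor, the values were 105, 130 and 110 CPM against 6.54, 17.2 and 13.9 CPM. *Gfra1*, a co-receptor of the neurotrophic factor GDNF, and *Prex2*, an exchange factor for the GTPase Rac, had mean levels of 110 ± 20.5 and 133 ± 40.6 CPM in the members and 14.9 ± 7.31 and 14.4 ± 6.62 CPM in the rest. The secreted C1q-like protein gene *C1ql3* (95.8 ± 19.5 against 7.81 ± 4.41 CPM) and the protease gene *Adamts18* (52.9 ± 8.48 against 5.25 ± 3.40 CPM) complete this group. None of these genes overlapped between members and rest, which their choice by the 2-fold rule favours. After thinning, a UMI was found in 19.7% of members for *Nkx6-2*, 22.6% for *Lhcgr*, 17.5% for *Gfra1*, 17.3% for *C1ql3* and 10.7% for *Adamts18*. In the other P3 astroglial cells these shares were 1.86%, 3.14%, 3.68%, 1.96% and 1.53%. A UMI of *Prex2* was also found in 15.2% of thinned endothelial cells, beside 18.2% of thinned members.

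**Figure D2:**
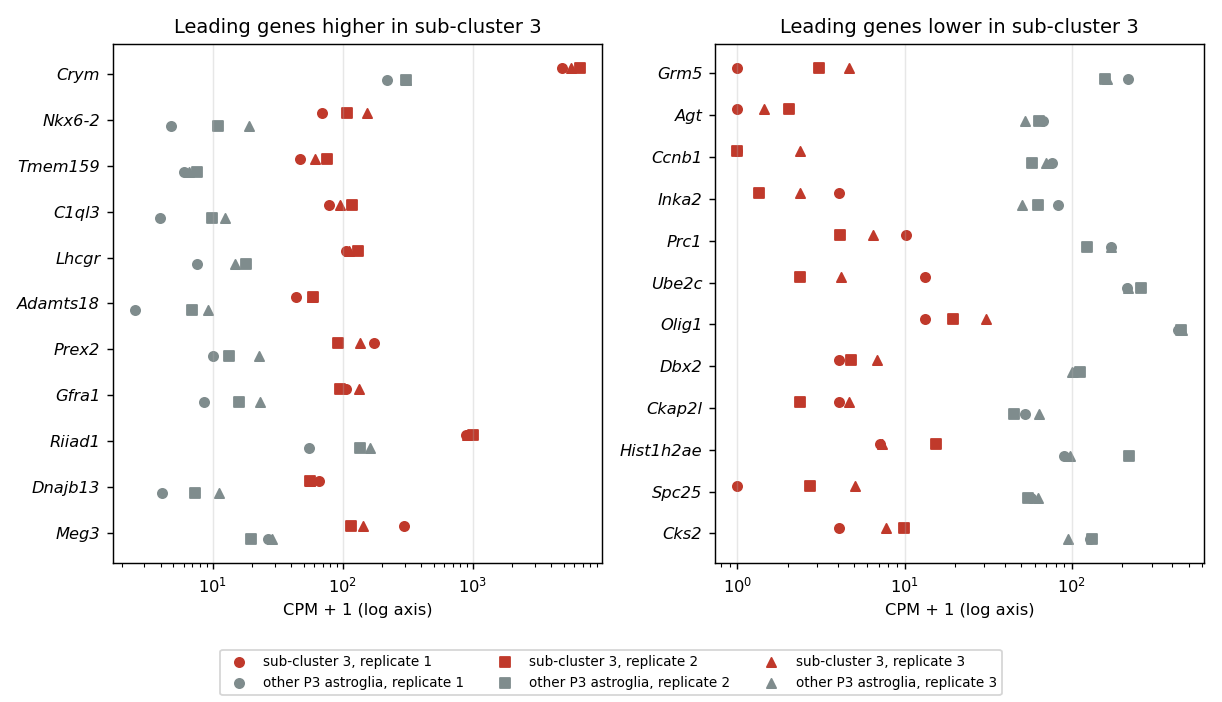
Levels of the leading genes named in each direction as CPM + 1 on a log axis, one symbol per P3 library, red for sub-cluster 3 and grey for all other P3 astroglial cells. Red and grey symbols do not overlap for any gene shown, which the choice of these genes by the 2-fold rule favours. *Crym* stands apart by its level.

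Genes of motile cilia and other ependymal markers were high in the members. Of the 8 ependymal markers, 6 were considered, and 5 of them were at least 2-fold higher in all 3 libraries, beside 4.3% of all genes. The list's median log2 ratio was 2.22. *Dynlrb2*, a dynein light chain, stood at 105, 174 and 142 CPM in the members and at 10.3, 37.2 and 61.0 CPM in the rest. *Tekt1*, a protein of the ciliary doublet, stood at 80.1, 98.7 and 81.1 CPM against 3.86, 14.5 and 21.1 CPM. *Cfap126*, *Rsph1* and *Mia* were the others. *Foxj1*, the sixth, had 73.9, 97.3 and 103 CPM against 17.8, 28.0 and 59.1 CPM, and its log2 ratio in replicate 3 was 0.79. The groups did not overlap for any of these genes, and the share of all genes without overlap was not counted. In the comparison without the proliferating sub-clusters 6 and 8, 3 of the 6 (*Tekt1*, *Mia* and *Cfap126*) met the rule. Compared with sub-clusters 0 and 1 alone, all 6 did.

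Several further ciliary genes, singled out after their values were seen, had the same pattern. *Enkur* stood at 185, 177 and 201 CPM in the members and at 10.4, 23.5 and 40.8 CPM in the rest, *Pifo* at 117, 146 and 118 CPM against 6.00, 18.5 and 23.0 CPM, and *Mlf1* at 206, 185 and 142 CPM against 14.7, 31.3 and 39.6 CPM. *Riiad1*, one of the leading genes, reached 887, 995 and 894 CPM against 54.4, 136 and 161 CPM, and a UMI of it was present in 79.4% of thinned members. All 4 were clear of the rest in every library, but they were picked by their values, so this is no separate result.

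The ciliary genes were not at the level of sub-cluster 15, the sub-cluster with the highest ciliary levels. *Foxj1* was at 91.5 ± 15.5 CPM in the members and 740 ± 144 CPM in sub-cluster 15, and *Enkur* at 188 ± 12.3 and 442 ± 48.2 CPM (SD, n = 3). Thinned cells with a *Dynlrb2* UMI made up 27.4% of members (Wilson 24.4 to 30.7) and 80.0% of sub-cluster 15 (72.8 to 85.7), and 0.519% of sub-clusters 0 and 1. No thinned member held a UMI of *Mcidas*, a regulator of the multiciliated fate, or of *Tmem212* (0 of 776 cells each, which allows up to 0.387%, taken as 3 counts of the total), though unthinned 2 of the 781 had one of *Mcidas*, and *Myb* was found in 0.773%. In sub-cluster 15 these shares were 11.0%, 6.90% and 34.5%. In all members 2 UMIs of *Ccdc153* were counted. Endothelial cells of cluster 7 had no UMI of *Foxj1*, *Dynlrb2*, *Pifo* or *Enkur* at the same depth.

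**Figure D3:**
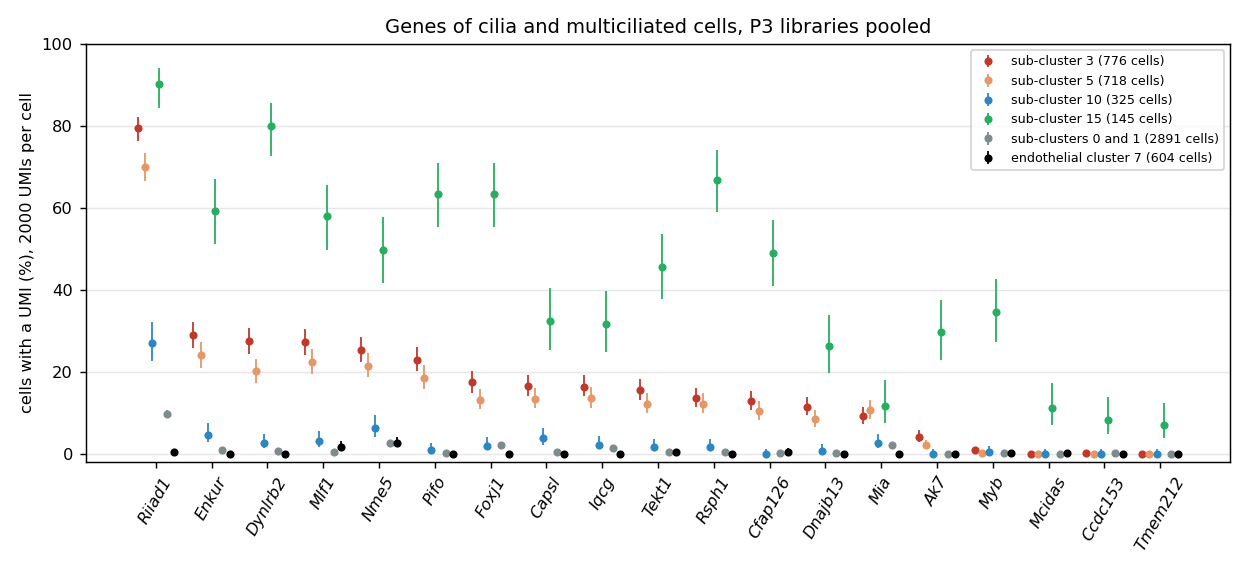
Share of cells with at least 1 UMI (%) for 19 genes of cilia and multiciliated cells, each cell thinned to 2000 UMIs and the P3 libraries pooled; points are shares and bars Wilson 95% intervals. Sub-cluster 3 lies between sub-clusters 0 and 1 and sub-cluster 15 for most genes, close to sub-cluster 5, and is at or near 0 for *Myb*, *Mcidas*, *Ccdc153* and *Tmem212*.

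The promoters of these genes were searched for the RFX half-site GTTGCCA, on both strands, because RFX factors bind promoters of ciliary genes. RefSeq promoters (GRCm38.p6, 250 bases before to 50 after the start) were matched by symbol for 346 of the 441 genes higher in the members. The half-site was found in 42 of the 346 (12.1%), in 11 of 278 matched genes lower in the members (3.96%) and in 1358 of all 27018 genes with a promoter (5.03%). A second motif, GTAAACA for FOXJ1, was found in 20 of 346 (5.78%), 7 of 278 (2.52%) and 4.05% of all. Neither motif contains the other, and a match describes the letters only. A gene counted as holding a motif if any of its promoters did. A set of 15 genes taken as ciliary includes *Capsl*, *Nme5*, *Ak7* and the ependymal marker *Mia*. Of these 15, 11 had a promoter and 4 held the RFX half-site. The 61 bases around it are printed for all 4 to show how alike its surroundings are, 5′ to 3′ on the gene's strand, with the half-site in capitals (TGGCAAC where it lies on the other strand).
*Mlf1* (chr3:67373965-67374025, plus strand, the half-site starting 105 bases before the start): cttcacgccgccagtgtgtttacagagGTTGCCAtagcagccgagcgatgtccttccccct
*Pifo* (chr3:106001477-106001537, minus strand, the half-site on the other strand and its first base 13 before): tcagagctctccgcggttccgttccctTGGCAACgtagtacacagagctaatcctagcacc
*Tekt1* (chr11:72361864-72361924, minus strand, 15 bases before): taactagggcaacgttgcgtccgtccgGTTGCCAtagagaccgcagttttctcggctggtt
*Iqcg* (chr16:33056172-33056232, minus strand, 19 bases before): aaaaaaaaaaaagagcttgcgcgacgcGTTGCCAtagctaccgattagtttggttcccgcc

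Read in its own direction, the half-site is followed by tag in *Mlf1*, *Tekt1* and *Iqcg* and by agg in *Pifo*. The *Pifo* match lies in the promoter at chr3:106001448-106001747, inside the annotated gene. The *Pifo* promoter at the annotated gene start (chr3:106014597-106014896) has none. A UMI of *Iqcg*, a ciliary gene singled out after its values were seen, was present in 16.4% of thinned members and 1.25% of sub-clusters 0 and 1.

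Several of the leading genes lower in the members are regulators and receptors. *Olig1*, a bHLH factor of ventral progenitors and the oligodendrocyte lineage, stood at 12.3, 18.6 and 29.9 CPM in the members and at 429, 447 and 456 CPM in the rest (log2 ratio -4.47 ± 0.56), and its neighbour *Olig2* at 3.08, 9.63 and 7.70 CPM against 152, 146 and 104 CPM. *Dbx2*, a homeobox gene, stood at 3.08, 3.78 and 5.89 CPM against 105, 111 and 98.6 CPM. The gap between members and rest was many times the spread between libraries. *Grm5*, the glutamate receptor mGluR5, had 0, 2.06 and 3.62 CPM against 217, 156 and 161 CPM, and *Agt*, angiotensinogen, had 4 UMIs in all members against a mean of 60.1 CPM in the rest. *Egfr* (7.66 ± 4.82 against 131 ± 14.9 CPM) and the kinase regulator gene *Inka2* (1.59 ± 1.38 against 64.5 ± 16.4 CPM) were low likewise. Each of these genes met the rule again when sub-clusters 6 and 8 were left out, *Grm5* with a log2 ratio of -6.22 and *Olig1* with -4.36.

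Genes of the cell cycle made up another set. Of 17 considered, 7 were at least 2-fold lower in all 3 libraries, beside 3.85% of all genes, and the median log2 ratio was -1.42. *Ube2c*, a ubiquitin-conjugating enzyme of mitosis, stood at 12.3, 1.38 and 3.17 CPM against 213, 259 and 217 CPM. *Ccnb1*, cyclin B1, had 3 UMIs in all members, a ratio to the rest of 0.00831 (exact 95% interval 0.00171 to 0.0243, counting error only). This list depended on the comparison. Without sub-clusters 6 and 8 none of it was 2-fold lower in all libraries and the median was -0.33. Against sub-clusters 0 and 1 alone the median was 1.13, none was lower, and *Cdk1*, *Mcm4* and *Mcm6* were at least 2-fold higher. After thinning, 4 of 776 members (0.515%, Wilson 0.201 to 1.32) had a UMI in at least 2 of *Mki67*, *Top2a* and *Cdk1*, against 8.32% of all other P3 astroglial cells and 0.0346% of sub-clusters 0 and 1.

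Of 16 patterning genes of the telencephalon, 8 reached the level to be considered. *Six3* stood at 139, 136 and 147 CPM in the members and at 97.1, 94.2 and 89.3 CPM in the rest, without overlap (log2 ratio 0.58 ± 0.11). *Lhx2* stood at 231, 245 and 275 CPM against 98.4, 105 and 142 CPM, a log2 ratio of 1.13 ± 0.16 that was 0.95 in replicate 3. With the threshold at 2-fold in every library, none of the 8 met it in either direction, and their median log2 ratio was 0.61. *Gsx2* had 6.16, 2.06 and 2.72 CPM in the members and 4.05, 6.28 and 9.56 CPM in the rest, values that overlapped. Only 1 of 20 diencephalic genes and 2 of 31 genes of the midbrain, hindbrain and cord reached the level to be considered. These were *Tcf7l2* (85.9 ± 12.2 against 65.0 ± 5.24 CPM), *Nkx6-2*, which was higher, and *Nkx2-2*, a homeobox gene of the ventral midline, which was lower (1.90 ± 1.10 against 24.0 ± 3.19 CPM). Per the study, sub-cluster 3 and several other P3 sub-clusters grouped with astrocytes from outside the telencephalon in a reference atlas. The study proposes that such cells may be contaminants from neighbouring parts of the brain. The origin of the members was not tested here.

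In the Wnt list, 4 of 21 considered genes were at least 2-fold higher and 3 lower, beside 4.3% and 3.85% of all genes. The secreted Wnt antagonist *Sfrp1* stood at 690, 558 and 730 CPM in the members and at 114, 104 and 153 CPM in the rest, and its relative *Sfrp5* at 108, 78.4 and 77.0 CPM against 25.4, 19.5 and 20.4 CPM. The receptor *Fzd5* (28.1 ± 10.5 against 3.72 ± 0.999 CPM) and the R-spondin receptor *Lgr4* (29.6 ± 9.68 against 10.8 ± 3.38 CPM) were the other 2. Those lower were the transcription factor *Lef1*, the receptor *Fzd9* and the ligase *Znrf3*. Against sub-clusters 0 and 1 alone, *Sfrp1* and *Fzd5* met the rule and *Sfrp5* and *Lgr4* did not, with log2 ratios of 1.21 and 0.99. After thinning to 2000 UMIs per cell the log2 ratio of *Lgr4* was -0.52 ± 2.44 (SD, n = 3). At that depth 65.9% of members held an *Sfrp1* UMI, beside 68.9% of sub-cluster 10, 57.0% of sub-cluster 5 and 51.0% of sub-cluster 15.

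Among BMP and Id genes, the inhibitor of bHLH factors *Id4* was higher (597, 441 and 344 CPM against 119, 98.2 and 107 CPM), whereas *Id3* (440, 294 and 283 CPM against 1044, 1261 and 1084 CPM), *Id2* and the ligand *Bmp7* were lower. Members of the Id family thus differed in direction in every library. Among thinned cells 52.7% of members held an *Id4* UMI, beside 44.6% of sub-cluster 10, 46.4% of sub-cluster 5 and 49.7% of sub-cluster 15. Of 16 genes of FGF signalling and Erk feedback, 4 were lower, beside 3.85% of all genes, and none higher. They were the receptor *Fgfr3*, the feedback inhibitors *Spry1* (2.70 ± 0.410 against 39.5 ± 2.44 CPM) and *Dusp6*, and the transcription factor *Etv4* (9.24, 14.4 and 10.9 CPM against 98.1, 75.9 and 84.4 CPM). None of the 7 Hedgehog genes met the rule, and of 11 Notch genes only *Heyl* did, being lower.

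Of 16 considered genes by which astrocytes handle transmitters, 9 were at least 2-fold lower and 1 higher, beside 3.85% and 4.3% of all genes, with a median log2 ratio of -1.42. After thinning, 7 of the 16 were lower and none higher. The GABA transporter *Slc6a11* (111, 89.4 and 121 CPM against 385, 281 and 340 CPM) was lower, as were the glycine transporter *Slc6a9*, the glutamine transporter *Slc38a3* and the receptor genes *Gria2*, *Grm3*, *Grm5*, *Gabbr2* and *Gabra2*. The exception was the GABA-A receptor subunit *Gabrb1* (154, 87.0 and 91.5 CPM against 32.5, 22.7 and 34.6 CPM). The glutamate transporters did not meet the rule. *Slc1a3* stood at 2086 CPM in the members and 2018 CPM in the rest, and *Slc1a2* at 1099 and 1129 CPM.

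**Figure D4:**
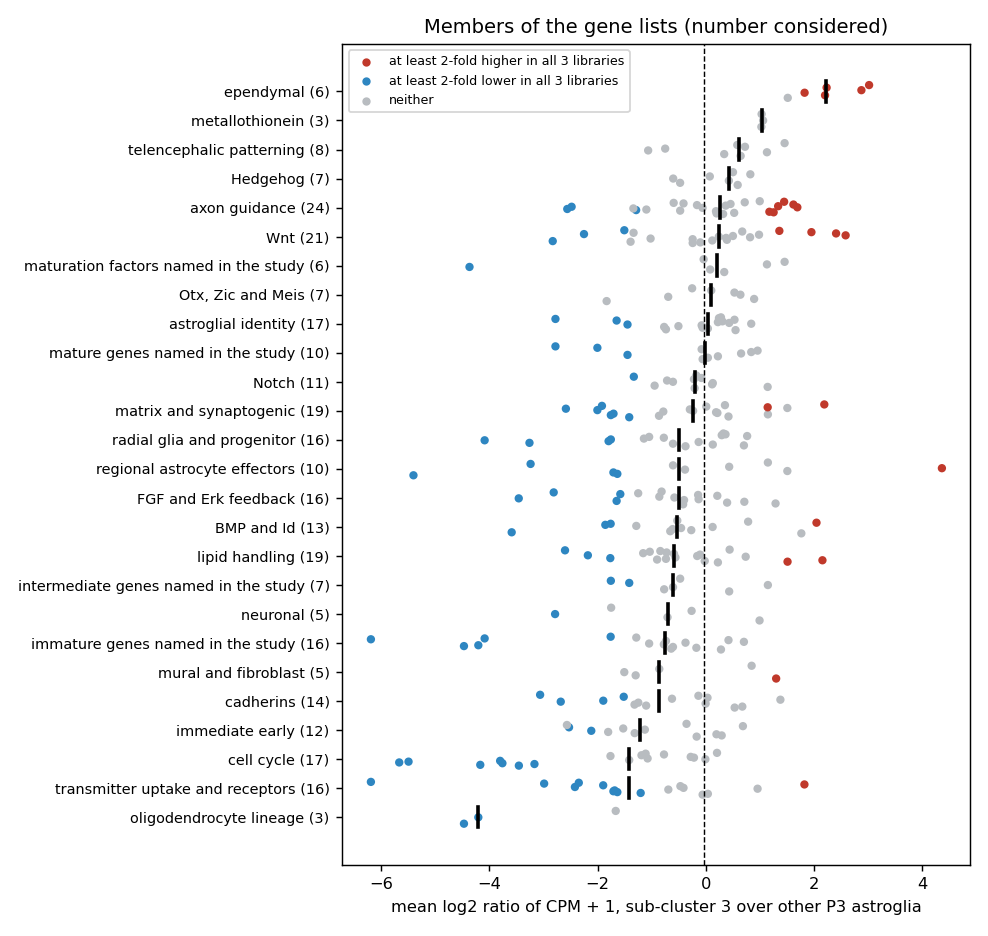
Mean log2 ratio of CPM + 1 over the 3 P3 libraries, sub-cluster 3 over all other P3 astroglial cells, for each considered member of the gene lists with at least 3 of them; black bars are list medians and the dashed line is the median of all genes (-0.03). The ependymal list lies furthest to the right and the oligodendrocyte lineage list, with 3 members, furthest to the left.

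General astroglial genes were divided. Of 17 on the list, 3 were lower (*Aqp4*, the water channel, with 128 ± 22.9 against 352 ± 71.6 CPM, *S100b* with 9.07 ± 2.80 against 67.0 ± 11.9 CPM, and *Fgfr3*) and none higher, with a median log2 ratio of 0.04. The glutamine synthetase gene *Glul* had log2 ratios of 0.94, 0.94 and 1.00, just under or at the 2-fold mark. The lists of genes that the study names for immature, intermediate and mature astrocytes were chosen by its authors on these samples and are not independent of them. Of their 16, 7 and 10 considered members, 5, 2 and 3 were lower, beside 3.85% of all genes, and none higher. *Olig1*, *Olig2*, *Grm5*, *Egfr* and *Id3* made up the immature ones, *Ncan* and *Tnc* the intermediate ones, and *Aqp4*, *Gpc5* and *S100b* the mature ones. No member had a pseudotime score on the authors' main lineage, which 5100 of the 8093 other P3 astroglial cells had.

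Sub-cluster 5 differed from the members in few genes. Of 10080 genes considered, 5 (0.0496%) were at least 2-fold higher in the members in all 3 libraries and 8 (0.0794%) at least 2-fold lower. *Crym* had 598, 815 and 635 CPM in sub-cluster 5, a log2 ratio of 3.07, and *Tmem159* had 5.03, 12.7 and 10.7 CPM, a log2 ratio of 2.61. *Erbb4*, *Lmo1* and *Mki67* were the other 3, singled out after their values were seen. *Mki67* had a log2 ratio of 2.87 but few UMIs, with 37.0, 1.72 and 4.98 CPM in the members and 0, 0 and 0.597 CPM in sub-cluster 5. In the other direction stood *Gsx2*, a homeobox gene of the lateral ganglionic eminence, with 65.4, 35.4 and 52.5 CPM in sub-cluster 5 and 6.16, 2.06 and 2.72 CPM in the members (log2 ratio -3.54), and the growth factor receptor gene *Egfr* (-1.66). None of the other leading genes that were higher in the members than in the rest met the rule against sub-cluster 5. *C1ql3* had 42.7, 50.7 and 40.0 CPM in sub-cluster 5 against 77.0, 116 and 94.7 CPM in the members, a difference of at least 2-fold in replicates 2 and 3. *Riiad1* stood at 804 ± 30.1 CPM in sub-cluster 5, *Adamts18* at 45.7 ± 11.7 CPM and *Gfra1* at 102 ± 19.3 CPM. *Nkx6-2* had 50.3, 59.0 and 97.8 CPM there, which overlaps with the members' values, and its log2 ratio did not reach 1 in any library. With 2 libraries to meet the rule the counts were larger or the same. Leaving out replicate 2 gave 36 higher and 28 lower genes, replicate 3 18 and 34, and replicate 1 5 and 18.

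Sub-cluster 10 shared fewer. Of 10063 genes, 315 (3.13%) were at least 2-fold higher in the members in all 3 libraries and 193 (1.92%) lower. *Six3* marked the difference most plainly among patterning genes, with 0, 0 and 1.83 CPM in sub-cluster 10 against 139, 136 and 147 CPM in the members. *Emx1*, a homeobox gene of the cortex, was the reverse, with 6.99, 32.8 and 38.4 CPM in sub-cluster 10 and 0, 1.03 and 1.81 CPM in the members. *Nkx6-2* (0, 0 and 4.57 CPM) and *Crym* (34.9, 10.9 and 66.7 CPM) were nearly absent from sub-cluster 10, and of 6 ependymal markers 5 were at least 2-fold higher in the members. *Hopx* was at least 2-fold lower in the members, with 38.4, 318 and 356 CPM in sub-cluster 10 against 0, 1.03 and 2.27 CPM. Shared between both were *Prex2* (110 ± 33.3 CPM in sub-cluster 10), *Adamts18* (39.4 ± 8.01 CPM) and a low level of *Olig1* (24.7 ± 15.9 CPM) and *Dbx2* (8.31 ± 5.23 CPM). Sub-cluster 10 held 35, 57 and 240 cells in the 3 libraries, so its values in replicates 1 and 2 rest on few.

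**Figure D5:**
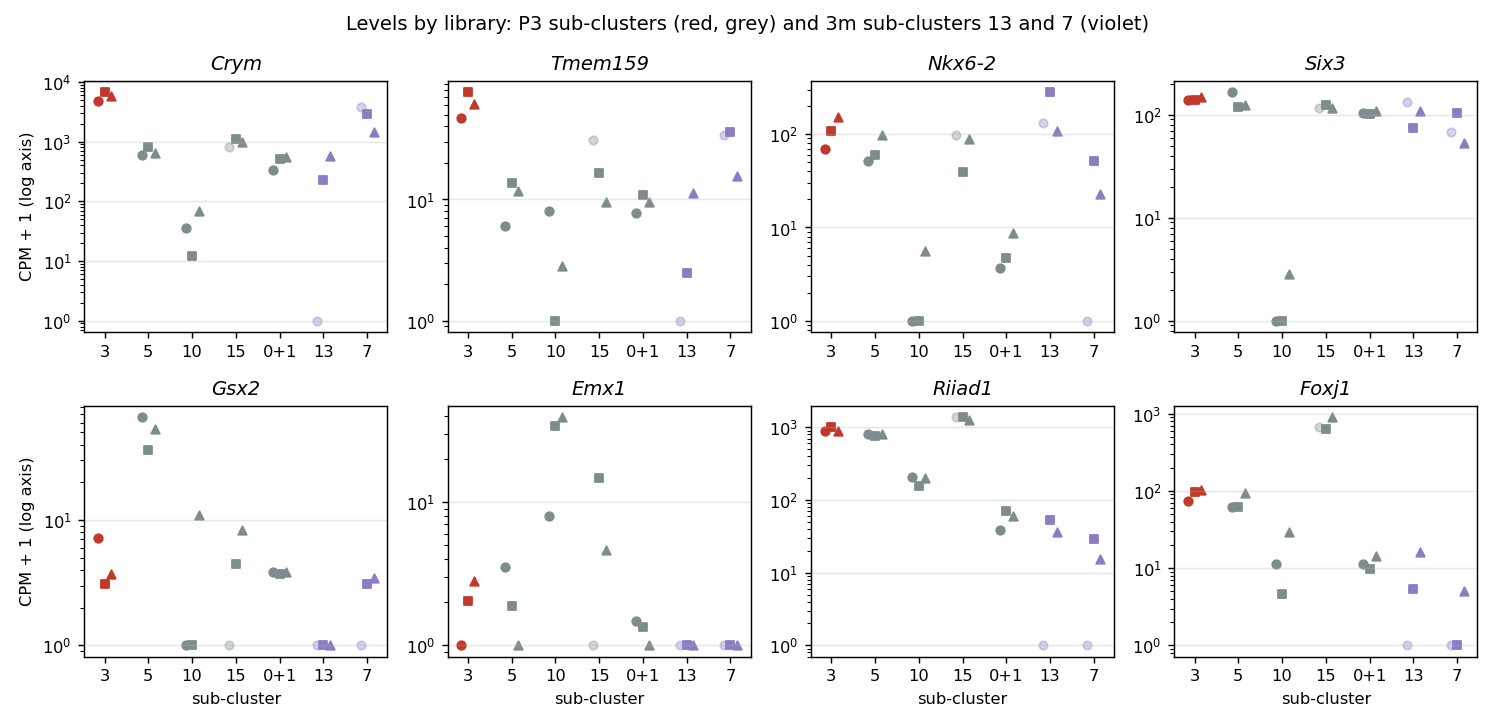
Levels of 8 genes as CPM + 1 on a log axis in sub-clusters 3, 5, 10, 15 and 0 with 1 at P3 and in the adult sub-clusters 13 and 7, with circles, squares and triangles for replicates 1, 2 and 3 and pale symbols for values from under 30 cells. *Crym* and *Tmem159* are highest in sub-cluster 3, *Gsx2* in sub-cluster 5 and *Emx1* in sub-cluster 10, while *Six3* is low only in sub-cluster 10 among these.

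In the adult sub-cluster 13, *Riiad1* stood at 0, 51.5 and 35.9 CPM, *Adamts18* had no UMI, and *Agt* (1959, 1133 and 901 CPM), *S100b* (1175, 806 and 722 CPM) and *Dbx2* (131, 194 and 169 CPM), all low in the members, were high. Also present in sub-cluster 13 were *Nkx6-2*, with 131, 280 and 108 CPM, and *Prex2*, with 261, 288 and 389 CPM. In the adult sub-cluster 7 *Prex2* stood at 465, 388 and 384 CPM. *S100b* (931, 535 and 575 CPM) and *Dbx2* (199, 233 and 248 CPM) were high there too. Lower there than in sub-cluster 13 were *Nkx6-2* (0, 50.7 and 21.8 CPM) and *Agt* (0, 74.6 and 47.7 CPM). The first value of each gene rests on 3 cells in sub-cluster 13 and on 14 cells in sub-cluster 7. Pearson's r with the members was 0.785 for sub-cluster 7 and 0.733 for sub-cluster 13. No comparison between the ages was tested.

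Libraries agreed more closely in the rest than in the members. Between replicates 2 and 3, 261 of the 10247 genes (2.55%) differed at least 2-fold in the members and 33 (0.322%) in the other cells. Between replicate 1 and replicate 2 these numbers were 1686 (16.5%) and 146 (1.42%), with 35 members in replicate 1. Without replicate 1, 510 genes were higher and 498 lower, among them 432 of the 441 and 388 of the 395. The overlap was smaller in some other settings. Without sub-clusters 6 and 8 in the comparison, 329 of the 441 higher and 235 of the 395 lower genes met the rule again. Against sub-clusters 0 and 1 alone, 376 and 214 did, and after thinning to 2000 UMIs per cell, 231 and 268.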

How the data were processed

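Droplet-based single-cell libraries of ACSA2-enriched striatal cells were analysed from the deposited table of UMI counts (32285 genes, 16690 barcodes) and the deposited cell annotation. Per the labels and methods, the authors mapped reads to mm10 and counted UMIs with Cell Ranger, kept cells by gene number and mitochondrial share, and clustered them in Seurat (3.1.1 in the submitters' processing notes). Counts are deposited without normalization. The pseudotime score is the authors' and has no unit. Sub-cluster numbers were taken as deposited. Doublets were not removed. A few genes are not reported here.

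UMIs were summed per P3 library over sub-cluster 3 and over all other P3 astroglial cells and scaled to CPM. Genes with a mean of the populations' CPM of at least 5 were considered, and a gene counted as higher or lower where the log2 ratio of CPM + 1 was at least 1, or at most -1, in all 3 libraries. This scale understates the difference of low genes. No test was made, since the same genes defined the cells. The same calculation was run against sub-clusters 5 and 10. For shares of cells with a UMI 2000 UMIs were drawn at random from every cell, omitting cells with fewer. Intervals cover counting error only. The rule was tested on simulated data. Named genes are members of gene lists, the 12 leading genes each way by the library with the smallest difference (at least 50 CPM in the higher population, unnamed genes left out), and genes said to be chosen after their values were seen. The members and lists were chosen with earlier results of these data known. Per the study, the 3 libraries of an age come from separate preparations. Gene coordinates are from GENCODE M21 (GRCm38). Histone genes share sequence and their counts are uncertain. Python 3.11.15, R 4.3.3 and edgeR 4.0.16 served for sums, scaling factors and figures. Alternatives were another pseudocount, filter, scaling, cell filter, comparison population, thinning and leaving out each library.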

Additional observations from a re-analysis of the deposited data

How the results depend on the processing

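No paired analysis was possible because the results come from no test. The ratios themselves were taken within each library. The counts of 441 higher and 395 lower genes became 226 and 172 with a filter at a mean of 20 CPM, which considers fewer genes, and 277 genes were higher when every cell was thinned to 2000 UMIs. Without a filter beyond 1 UMI, 611 genes were lower. Other settings gave 295 to 634 higher and 273 to 455 lower genes, the highest of the former (634) without sub-clusters 5, 10 and 15 in the comparison, an alternative chosen after seeing the data. Leaving out 1 library gave 500 to 571 higher and 474 to 498 lower genes, since fewer libraries had to meet the rule, and a share of 5.39% to 11.0%. For the comparison with sub-cluster 5 this range was 5 to 36 higher and 18 to 34 lower, for sub-cluster 10 it was 401 to 483 and 260 to 374. The share of members with a *Crym* UMI ranged from 99.5% to 100% and that of cycling members from 0.405% to 0.806%. TMM scaling lowered the median log2 ratio of all genes by 0.11, to -0.13.

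Of 287 named genes, 101 met the rule, and 10 of these 101 changed sign under an alternative. Against sub-clusters 0 and 1 alone the log2 ratios (± SD) were 0.28 ± 0.33 for *Ckap2l*, 0.35 ± 1.39 for *Ube2c*, 1.35 ± 1.93 for *Ccna2* and 0.23 ± 0.46 for *Prc1*. They were 1.33 ± 1.54 for *Mki67*, 1.41 ± 0.21 for *Cdk1*, 1.19 ± 1.77 for *Top2a* and 0.11 ± 0.04 for *Hist1h2ae*. Without sub-clusters 6 and 8 *Mki67* gave 0.21 ± 1.92. Thinning gave -0.52 ± 2.44 for *Lgr4* and -0.47 ± 2.79 for *Efnb2*, values smaller than their SD over libraries. The cause was not tested. In the 35 cells of replicate 1, a single UMI is worth 3.08 CPM before thinning and more after it, and depth limits low genes.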

Other observations

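Contact and guidance genes were divided among the members as well. Of 24 considered axon guidance genes, 6 were at least 2-fold higher in all 3 libraries and 3 lower, beside 4.3% and 3.85% of all genes. Without sub-clusters 6 and 8 in the comparison 3 were higher and 4 lower, and after thinning 3 and 2. The receptor *Ephb1* stood at 70.8, 50.5 and 57.1 CPM against 18.5, 16.8 and 20.2 CPM, the ligand *Efnb2* at 37.0, 36.1 and 48.0 CPM against 12.5, 13.2 and 16.7 CPM, and *Plxnc1* at 102, 60.8 and 76.1 CPM against 24.2, 20.1 and 26.1 CPM. *Epha3*, *Ntn4* and *Sema4d* were the others, while *Nrp1*, *Plxna2* and *Sema6d* were lower. Of 14 cadherin genes 4 were lower and none higher. In the matrix list *Itih5* and *Fbln5* were higher and 6 of 19 lower, *Sparcl1* with 475 ± 182 against 1493 ± 343 CPM among them.

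Lipid carriers and enzymes were divided too. *Clu*, clusterin, stood at 1759, 1834 and 2781 CPM in the members against 469, 705 and 1164 CPM, and the cholesterol transporter *Abcg1* at 18.5, 12.7 and 19.0 CPM against 2.00, 2.42 and 4.87 CPM. The desaturase *Scd1*, the elongase *Elovl2* and *Lcat* were lower. The 3 metallothionein genes had a median log2 ratio of 1.03 and none met the rule in all libraries, and the receptor gene *Pdgfrb*, which also marks mural cells, was higher (68.6 ± 24.1 against 26.8 ± 7.77 CPM) while the summed mural and fibroblast markers overlapped (101 to 136 against 94.2 to 162 CPM).

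Immediate early genes differed by library. *Fos* stood at 711, 2119 and 2168 CPM in the members of replicates 1, 2 and 3 and at 1687, 1359 and 2023 CPM in the rest, so its log2 ratio was -1.24 in replicate 1 and 0.64 and 0.10 in the others. *Nr4a1* and *Egr1* had their lowest ratios in replicate 1 too, -5.55 and -3.53.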
